A study of Mus musculus with 25 samples.

Results

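Mouse back skin on postnatal day 14 was compared with back skin on postnatal day 6, a late and an early time of the first hair growth phase. The comparison rests on the 3 arrays titled Postnatal day 14 and the 3 titled Postnatal day 6, which are 6 of the 25 arrays of a time course from day 1 to 1 year of age, and it covers all probe sets other than the array maker's controls. Each array is labelled as 1 mouse and was hybridised with total RNA of whole back skin, so epidermis, follicles, dermis, fat and the thin skin muscle are measured together. All animals of the 2 groups are labelled by age alone. The sources used here give no strain, sex or hair phase at collection. Age differs together with hair growth, so the 2 cannot be told apart. The arrays were scaled to the same trimmed mean, so each level is relative to the other RNA of its array. In such bulk RNA, fewer cells of a type, less RNA per cell and a smaller share beside other RNA cannot be told apart either.

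Hair follicles of newborn mice grow together. A follicle in growth holds a bulb of dividing matrix cells around the dermal papilla, and the offspring of the matrix cells become the keratin-filled hair shaft and the sheaths around it, while the epidermis between follicles renews its cornified barrier. In the same weeks the pup outgrows its perinatal programme: fetal growth factors from imprinted genes, perinatal muscle myosins and the fast build-up of dermal matrix are known to decline after birth.

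The 6 arrays had been scaled alike, and the median intensity lay between 191.4 and 213.35 units on day 6 and between 198.05 and 205.35 on day 14. The Pearson correlation of log2 values over probe sets was 0.957 to 0.962 within day 6, 0.962 to 0.965 within day 14 and 0.923 to 0.933 between the ages. RNA integrity was read from control probe sets. For Gapdh the 3' signal divided by the 5' signal was 1.03 ± 0.12 at the earlier age and 0.93 ± 0.01 at the later one, and for Actb it was 1.21 ± 0.12 and 1.24 ± 0.06 (SD, 3 arrays each). The female transcript Xist was at 473, 558 and 353 units on the day 6 arrays and at 848, 644 and 12.7 on those of day 14, and the Y-linked Eif2s3y was at 112, 128 and 119.8 and 26.7, 3.2 and 321. All day 6 arrays thus held both of these sex markers above the floor of 32.7 units and no day 14 array did. The labels name 1 mouse per array. The dimmer Y-linked genes Uty and Kdm5d did not show this split. Uty had 18.4, 33.5 and 52.0 units on day 6 and 5.6, 8.0 and 65.3 on day 14. Kdm5d had 27.5, 11.7 and 24.2 units on day 6 and 27.3, 58.8 and 40.8 on day 14. The split, and the sex marker covariate below, thus rest on Xist and 1 Eif2s3y probe set. No source used here says whether animals were pooled on the day 6 arrays. The p-values measure the spread between arrays of the same age, taken over the 18 arrays of the fit and not over these 6 alone.

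Of 8715 probe sets tested, 647 (7.42%) were called higher and 816 (9.36%) lower on day 14, which is 1463 or 16.8% in all (limma, adjusted p under 0.05, Benjamini-Hochberg). Among the called, 173 rose and 242 fell by at least 2-fold, and 30 rose and 34 fell by at least 4-fold. The 3 arrays of day 14 lay above all 3 of day 6 for 16.9% of probe sets and below them for 18.5%, together 35.4%. The median log2 change of all probe sets was 0.004. Counted by gene, with the brightest probe set standing for each of 6489 genes, 486 (7.49%) were higher and 661 (10.2%) lower. These 2 shares are the background for every list count below. The lists were chosen with earlier results of these data known, so setting them beside it is a description and no test. With a covariate for arrays that held both sex markers, 79 probe sets were called higher and 103 lower. That covariate has 1 value on day 6 and the other on day 14, so only the day 1 arrays inform it. Without mouse 1 of day 14, 427 probe sets were called higher.

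**Figure D1:**
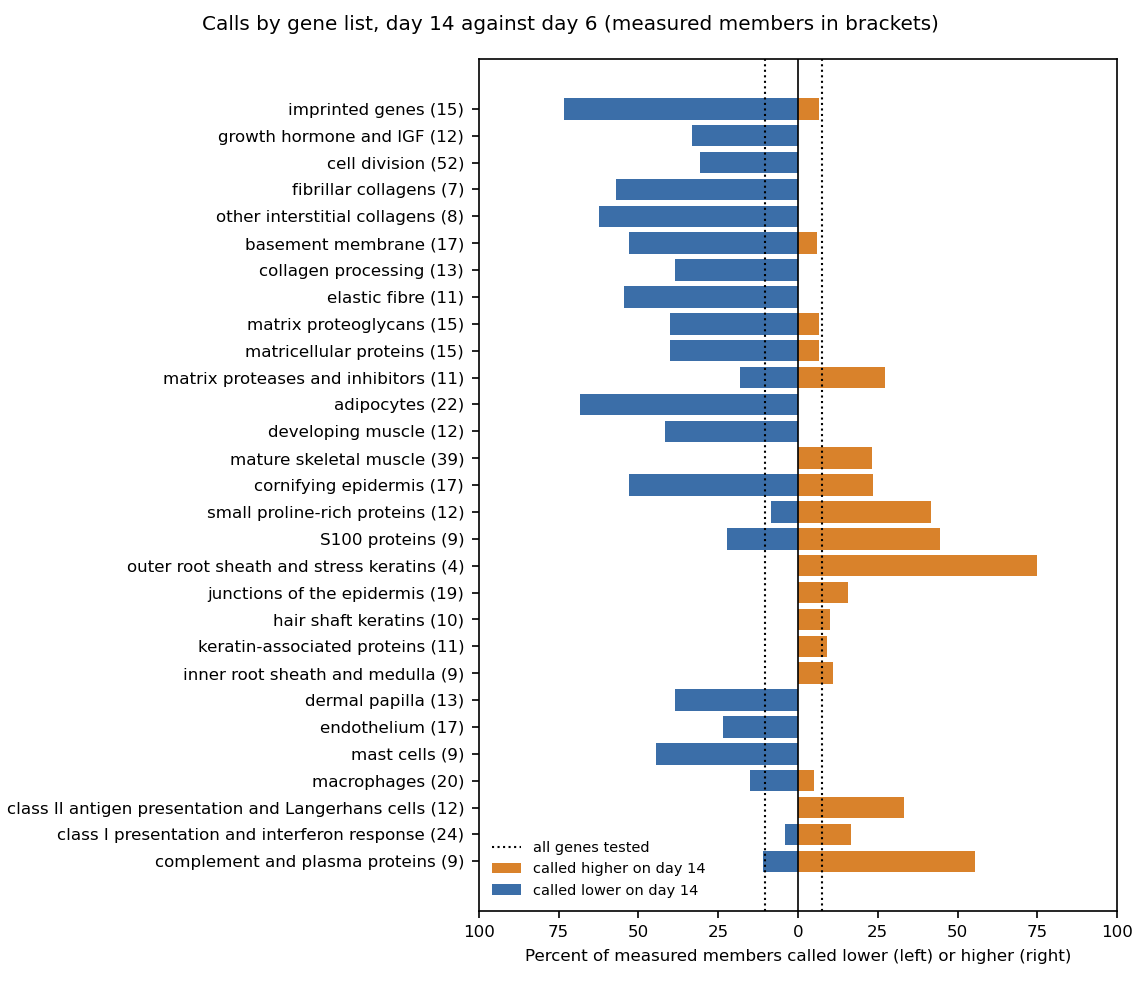
Share of the measured members of the gene lists described here called lower (bars to the left) or higher (bars to the right) on day 14 against day 6, in percent, with the number of measured members in brackets and the share of all 6489 genes as dotted lines (10.2% lower, 7.49% higher). Imprinted genes and adipocytes reach furthest to the left, followed by interstitial and fibrillar collagens, and outer root sheath keratins and plasma proteins reach furthest to the right.

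Most imprinted genes fell. Imprinted genes are read from the maternal or the paternal copy alone, and many of them set fetal and neonatal growth. Of 15 measured members of this list 11 were lower and 1 was higher, with a median log2 change of -1.52, beside 10.2% lower and 7.49% higher and a median of -0.011 over all genes. The growth factor gene Igf2 had 14858, 11926 and 12608 units on day 6 and 4087, 4137 and 3351 on day 14 and fell by 1.77 ± 0.17 on the log2 scale (± SE here and below) with adjusted p = 1.73e-06. Dlk1, which encodes a transmembrane inhibitor of fat cell formation, had 3663, 3606 and 3034 units on day 6 and 698, 553 and 561 on day 14, a log2 change of -2.51 ± 0.21 (adjusted p = 4.71e-07). For both genes the lowest day 6 array was well above the highest of day 14.

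Meg3, the noncoding transcript beside Dlk1, had 4690.1, 3658 and 3899 units on day 6 and 129.6, 501 and 132 on day 14, with a log2 change of -4.31 ± 0.69 (adjusted p = 4.03e-04). Mouse 2 of day 14 was above the other day 14 arrays, and all 3 lay far below day 6. A second probe set of Meg3 went from 2424, 1974 and 2260.1 units to 737.0, 540.0 and 535.6, a log2 change of -1.89 ± 0.18. Both probe sets were lower, by different amounts. Cdkn1c, an inhibitor of cyclin-dependent kinases, had 1454, 1511 and 1524 units on day 6 and 453, 469 and 352 on day 14, a change of -1.83 ± 0.18 (adjusted p = 3.26e-06).

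The zinc finger genes Peg3 and Plagl1 changed by -1.66 ± 0.14 and -1.87 ± 0.32, the lipase-like Mest by -1.56 ± 0.24, Ndn, a regulator of growth arrest, by -1.52 ± 0.20 and the amino acid transporter Slc38a4 by -1.15 ± 0.13. Gnas, the stimulatory G protein subunit, and Sgce, a sarcoglycan, changed least of the called members, by -0.67 ± 0.09 and -0.55 ± 0.18. Phlda2, which restrains placental growth and lies near Cdkn1c, was the member that rose, from 195, 259 and 156 units to 346, 362 and 286, a change of 0.73 ± 0.23 (adjusted p = 0.0415). Grb10, an adaptor that dampens insulin signals, Nnat and the receptor Igf2r, which clears Igf2, had log2 changes of -0.81 ± 0.38, -0.51 ± 0.37 and -0.21 ± 0.15 and did not pass. Under the sex marker covariate 6 members were lower and none higher; the calls of Igf2, Dlk1, Cdkn1c, Peg3, Ndn and Slc38a4 held and those of Meg3, Mest and Plagl1 did not. Phlda2 was not called with the 25 arrays in 1 fit.

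**Figure D2:**
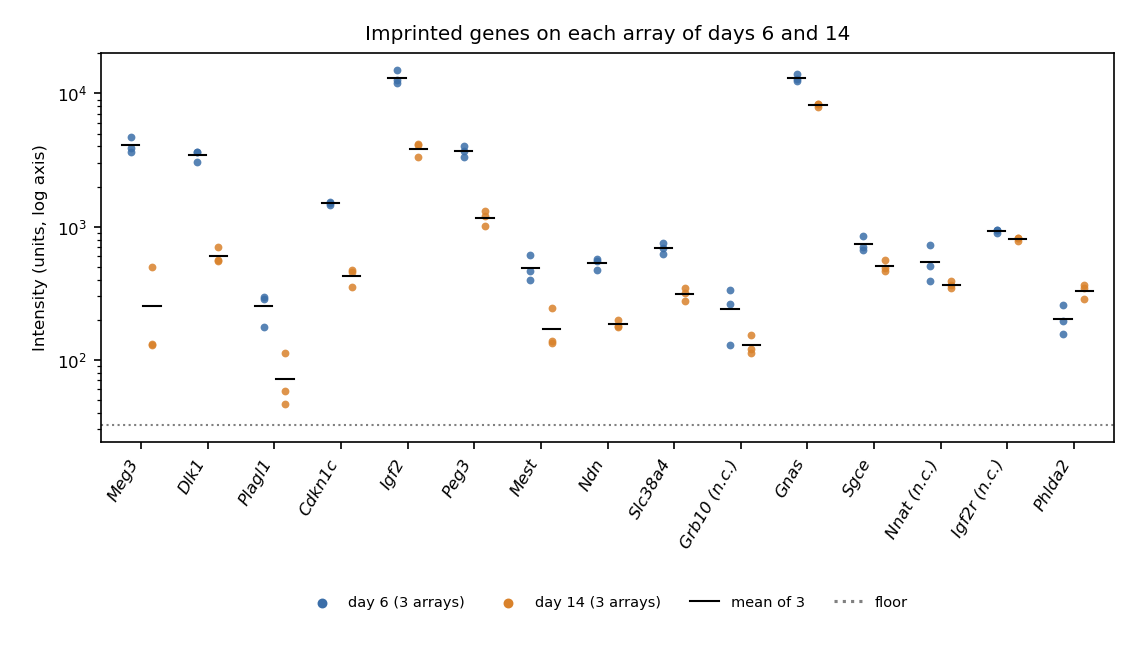
Intensity of the 15 measured imprinted genes on each array, on a log axis, day 6 in blue and day 14 in orange, with the mean of 3 arrays as a black bar and the floor of 32.7 units as a dotted line; "n.c." marks genes that were not called. For 11 of the genes the day 14 points lie lower and were called, while the points of Grb10 and Nnat overlap between the ages and Phlda2 is higher on day 14.

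Other parts of the growth hormone and insulin-like growth factor system fell in part. Of 12 measured genes 4 were lower and none higher, with a median log2 change of -0.17. The binding protein Igfbp2 had 2194, 2491 and 1898 units on day 6 and 812, 842 and 703 on day 14 (-1.48 ± 0.13, adjusted p = 7.29e-07). Igfbp4, another binding protein, and Socs2, which damps growth hormone signalling, changed by -1.08 ± 0.13 and -0.77 ± 0.14. The ligand Igf1 stood at 1778, 1354 and 1616 units on day 6 and 1916, 1732 and 1760.5 on day 14, with a change of 0.20 ± 0.15 that did not pass (adjusted p = 0.403), although another probe set of Igf1 was called lower. The receptors Igf1r and Ghr had changes of -0.11 ± 0.15 and -0.13 ± 0.15 and did not pass.

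Genes of the cornifying epidermis moved in both directions, most of them down. Of 17 measured genes of the list 9 were lower and 4 higher, with a median log2 change of -1.08. Krt1, the type II keratin of suprabasal epidermis, had 20524, 18897 and 19843 units on day 6 and 979, 891 and 971 on day 14 and fell by 4.38 ± 0.19 (adjusted p = 4.39e-10). Its partner Krt10 had 22196, 20689.9 and 21413 units on day 6 and 9298, 8239 and 8836 on day 14 and fell by 1.29 ± 0.13. Krt77, a type II keratin of the epidermis and sweat ducts and outside this list, rose over the same days from 1092, 1156 and 1026 units to 5257, 4768 and 4801 (2.18 ± 0.10, adjusted p = 5.62e-10). Neither group of any of these keratins overlapped the other.

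Flg, the keratin-bundling filaggrin, had 15805, 11442 and 13916 units on day 6 and 1158, 1692 and 1545 on day 14 and fell by 3.23 ± 0.20 (adjusted p = 1.56e-08). Casp14, the protease that takes part in filaggrin breakdown, went from 2427, 2243 and 2101 units to 518, 281 and 232, and Hal, which converts histidine to urocanic acid, from 1875, 1999 and 1912 to 488, 471 and 409. These genes of the filaggrin route were lower on every day 14 array, with log2 changes of -2.80 ± 0.27 and -2.08 ± 0.12. The calmodulin-like Calm4, the lipoxygenase Alox12b, the secreted Krtdap and the cornified envelope protein Lor changed by -1.81 ± 0.09, -1.59 ± 0.15, -1.26 ± 0.11 and -1.08 ± 0.10.

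Members that rose include the envelope precursor Ivl, from 545, 524 and 509 units to 1153, 1056 and 1229.9 (1.12 ± 0.28, adjusted p = 0.0102), and the cross-linking enzyme Tgm3, from 684, 616 and 555 to 1248, 1724 and 1423 (1.24 ± 0.38, adjusted p = 0.0351). Ppl, a plakin of the envelope, and Cdsn, an adhesion protein of corneocytes, changed by 0.65 ± 0.09 and 0.53 ± 0.18. The protease Asprv1 and the barrier regulator Klf4 did not pass, with changes of 0.07 ± 0.13 and -0.30 ± 0.13. The summed intensity of the list was 147822 to 160901 units on day 6 and 75907 to 79191 on day 14. The 9 decreases were called with the sex marker covariate and the 4 increases were not; with all 25 arrays in 1 fit 1 increase was called.

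The small proline-rich proteins, which are cross-linked into cornified envelopes, moved in both directions within 1 gene cluster. Their genes lie side by side on chromosome 3, and the 120 bases before the start of 7 protein-coding Sprr2 genes are shown to set the members that rose beside those that did not pass. The sequences run 5' to 3' on the plus strand and are from RefSeq, build GRCm38.p6, with an octamer ATTTGCAT and a TATA box TATAAA in capitals (each searched on both strands).
Sprr2e (rose), chr3:92352023-92352142: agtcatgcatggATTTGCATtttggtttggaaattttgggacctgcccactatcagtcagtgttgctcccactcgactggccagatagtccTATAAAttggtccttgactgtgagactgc
Sprr2f (rose), chr3:92365067-92365186: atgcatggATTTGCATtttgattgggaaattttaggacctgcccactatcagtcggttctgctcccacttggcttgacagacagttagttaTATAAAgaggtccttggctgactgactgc
Sprr2h (rose), chr3:92385565-92385684: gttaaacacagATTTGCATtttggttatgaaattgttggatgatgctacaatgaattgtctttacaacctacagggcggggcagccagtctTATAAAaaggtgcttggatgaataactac
Sprr2i (rose), chr3:92407871-92407990: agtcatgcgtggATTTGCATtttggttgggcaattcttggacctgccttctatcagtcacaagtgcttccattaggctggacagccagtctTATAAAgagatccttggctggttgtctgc
Sprr2b (did not pass), chr3:92316585-92316704: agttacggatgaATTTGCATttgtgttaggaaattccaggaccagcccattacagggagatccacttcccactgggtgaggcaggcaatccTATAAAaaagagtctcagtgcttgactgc
Sprr2d (did not pass), chr3:92339020-92339139: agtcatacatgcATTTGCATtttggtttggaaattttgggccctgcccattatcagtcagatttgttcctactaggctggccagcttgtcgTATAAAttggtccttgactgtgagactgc
Sprr2k (did not pass), chr3:92432462-92432581: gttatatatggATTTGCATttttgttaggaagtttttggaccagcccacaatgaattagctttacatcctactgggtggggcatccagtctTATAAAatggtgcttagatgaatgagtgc

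All 7 windows hold both motifs, and the TATA box begins 29 bases before the start in each. The octamer begins between 108 and 112 bases before it. Of 32851 promoters in the same table, 0.791% hold the octamer and 6.34% the TATA box in a window of 120 bases. The motifs are thus shared by genes labelled as rising and genes labelled as not passing, and a match is a description of the letters alone. The labels of Sprr2b, Sprr2e, Sprr2f, Sprr2i and Sprr2k come from probe sets that can hold signal of a near-identical relative.

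Of 12 measured members of the family 5 were higher and 1 lower, with a median log2 change of 0.81. Sprr2h had 561, 592 and 459.8 units on day 6 and 5864, 6362 and 7344 on day 14, a rise by 3.60 ± 0.55 (adjusted p = 2.81e-04). Sprr2f had 160.5, 84.9 and 53.9 units on day 6 and 708, 677 and 742 on day 14, a rise by 2.97 ± 0.37 (adjusted p = 3.27e-05). For both genes no day 6 array reached the level of a day 14 array.

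Sprr2e and Sprr2i rose from 2394, 2062 and 2424 units to 5132, 5564 and 5362 (1.23 ± 0.10) and from 1252, 1206 and 1609 to 2916, 3489.5 and 3490.5 (1.29 ± 0.15), and Sprr2j-ps, a transcribed pseudogene, changed by 0.90 ± 0.18. Sprr2g, a transcribed pseudogene between Sprr2f and Sprr2h, went the other way, from 1511, 1122 and 1411 units to 199.9, 210.1 and 233 and fell by 2.64 ± 0.20 (adjusted p = 1.64e-07). The pseudogene Sprr2c-ps, outside the list, had the largest fitted increase of the named genes, from 94.2, 48.8 and 47.3 units to 1874, 2381 and 2754 (5.26 ± 0.26, adjusted p = 6.91e-10).

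Sprr2b, Sprr2d and Sprr2k, with changes of 0.37 ± 0.28, 0.32 ± 0.31 and 0.04 ± 0.36, did not pass, nor did Sprr3 at -0.70 ± 0.54. Sprr1a and Sprr1b lay higher on every day 14 array (31672, 27596 and 29507 against 52524, 52834 and 52576 units for Sprr1a) and did not pass, with adjusted p = 0.194 and 0.0607. Among the arrays in the fit, mouse 3 of 9 weeks had 17914.9 units of Sprr1a and mice 1 and 2 had 4003.7 and 2613.2. With the 15 arrays without 9 weeks 7 members of the family were higher and 1 lower. The probe sets of Sprr2b, Sprr2e, Sprr2g, Sprr2i, Sprr2k, Sprr2c-ps and Sprr2j-ps carry the array maker's suffix for sets shared by a gene family, and that of Sprr2f the suffix for sets shared by several transcripts. Each of these values can hold signal of a near-identical relative and is uncertain as to which copy it reads. Under the sex marker covariate 2 members were higher and 1 lower, and Sprr2h was not called.

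**Figure D3:**
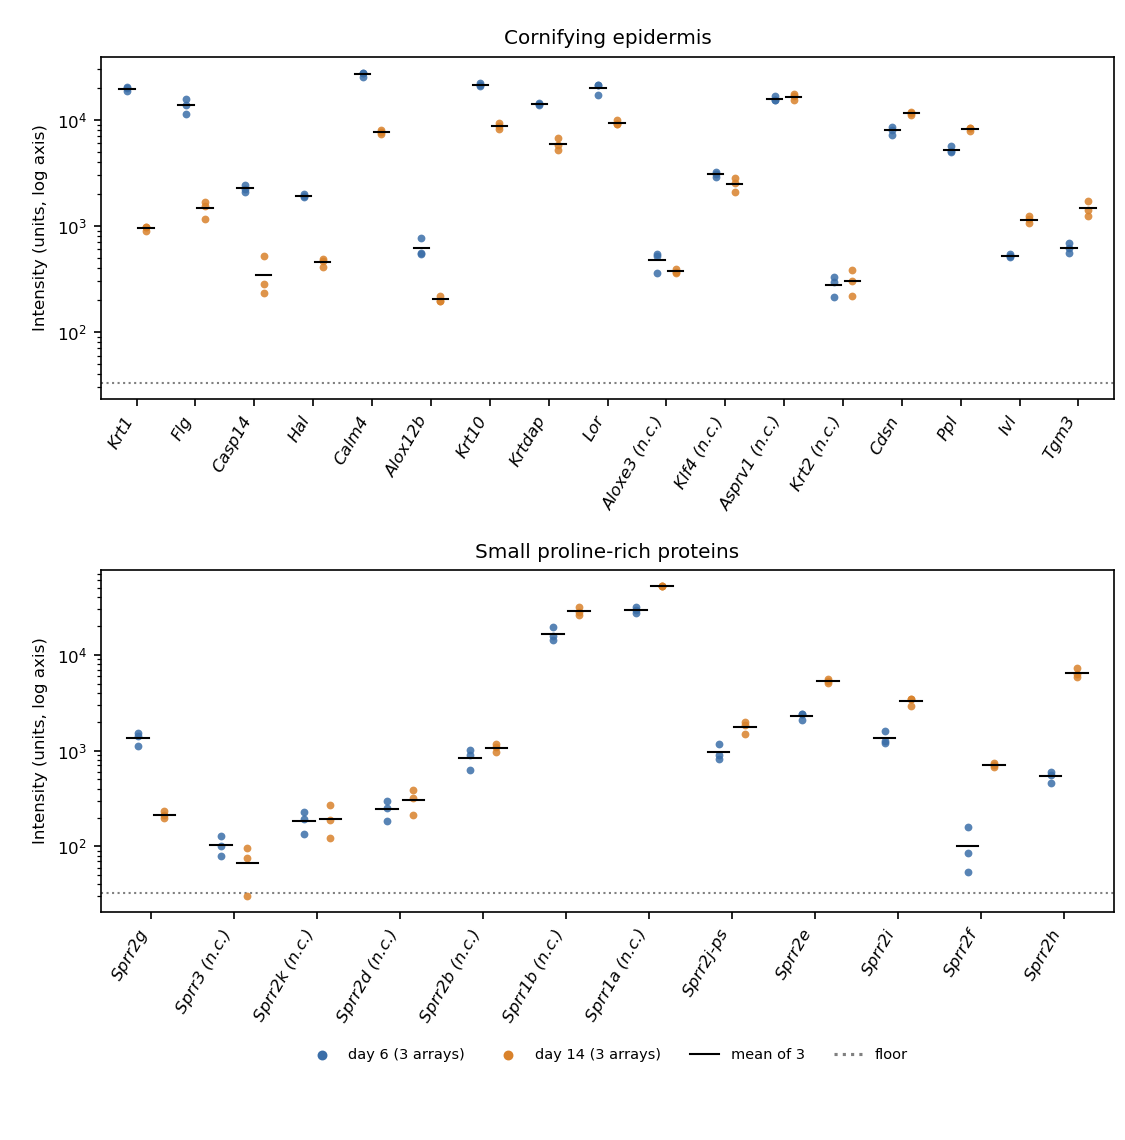
Intensity on each array of the genes of the cornifying epidermis (top) and of the small proline-rich proteins (bottom), on log axes, with day 6 in blue, day 14 in orange, means as black bars and the floor as a dotted line; "n.c." marks genes not called. Krt1 falls furthest of the upper genes, to 947 units on average, and Sprr2g falls while Sprr2h and Sprr2f rise.

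Most measured keratins of the outer root sheath and of activated epidermis rose. Of 4 measured members 3 were higher, with a median log2 change of 0.97. Krt16 had 208, 249.8 and 159.6 units on day 6 and 682, 883 and 707 on day 14 (1.89 ± 0.35, adjusted p = 0.00131), and Krt6a, its usual partner, had 6857, 7474 and 8122 and 16801, 16883 and 15343 (1.13 ± 0.09, adjusted p = 2.61e-07). Krt17, of the outer root sheath and hair bulb, changed by 0.82 ± 0.17, while 2 other probe sets of it were not called. With all 25 arrays in 1 fit none of the 4 was called.

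Among S100 genes, whose calcium-binding products lie mainly in epithelia and leukocytes, 4 of 9 measured were higher and 2 lower. S100a8, a subunit of antimicrobial calprotectin, had 272, 402 and 312 units on day 6 and 1264, 1543 and 1378 on day 14 (2.10 ± 0.16, adjusted p = 2.18e-07), and its partner S100a9 changed by 1.27 ± 0.27. S100a9 passed the filter on low values only through the day 14 arrays, where it is high, so its call is no separate support. S100a8 and S100a9 also stand in the neutrophil list, where the granule peptide Camp fell, from 402, 349 and 433 units to 253, 55.9 and 181 (-1.52 ± 0.44, adjusted p = 0.0243), and Elane, Lcn2 and Ltf, at 0.15 ± 0.27, 0.30 ± 0.28 and 1.26 ± 0.44, did not pass; the part of neutrophils was not tested. S100a1 and S100a6 rose by 0.87 ± 0.15 and 0.65 ± 0.08, and S100a10 and S100a13 fell by 0.75 ± 0.10 and 0.57 ± 0.13. Of 19 junction genes of the epidermis 3 were higher, beside 7.49% of all genes: Dsc2, a desmosomal cadherin, at 2.16 ± 0.46, Tjp1 of tight junctions at 0.56 ± 0.13 and Perp of desmosomes at 0.43 ± 0.09. With the 15 arrays without 9 weeks 9 junction genes were higher and 1 lower, and with the 6 arrays alone 8 and 1. Over all probe sets these fits called 929 of 8594 and 671 of 7482 higher. Of 7 basal keratinocyte genes 2 were higher, the regulator Trp63 at 0.41 ± 0.09 and the hemidesmosome collagen Col17a1 at 0.52 ± 0.13.

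Most genes of the hair shaft lay higher on day 14, and whether they passed depended on the arrays in the fit. Of 10 measured hair shaft keratins 1 was called, though 9 had day 14 arrays that all lay above those of day 6 (16.9% of all probe sets did), with a median log2 change of 0.83. Krt84, a keratin of the hair cuticle, had 299, 464 and 187 units on day 6 and 1294, 1715 and 1427 on day 14 (2.31 ± 0.27, adjusted p = 1.74e-05). Krt86, a cortex keratin, had 24554, 18748 and 14884 units on day 6 and 45434, 52279 and 50939 on day 14, and Krt31, an acidic cortex keratin, had 17094, 17547 and 13108 and 28680.5, 33717 and 33838. The arrays of these genes do not overlap either, yet their changes of 1.38 ± 0.83 and 1.02 ± 1.13 did not pass (adjusted p = 0.282 and 0.595).

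Among the arrays that share the estimate of spread, mouse 3 of 9 weeks had 11066 units of Krt31 and mice 1 and 2 had 156.9 and 61.7. The median SE of the 10 keratins was 0.9 with the 18 arrays up to 9 weeks, 0.16 with the 15 without 9 weeks and 0.12 with the 6 arrays alone. In these last 2 fits 9 of the 10 were called higher, and in the fit of 15 arrays Krt86 and Krt31 had adjusted p = 4.86e-05 and 1.95e-04. Krt36, a keratin of the hair shaft and nail, was the member with no such difference, at 2326, 1981 and 1926 units on day 6 and 1840.4, 2337 and 2101 on day 14 (0.01 ± 0.36).

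Keratin-associated proteins, which cross-link keratins in the shaft, showed the same pattern of calls. Of 11 measured 1 was called higher, Krtap5-1 at 1.15 ± 0.34 (adjusted p = 0.0298), against 8 higher and 1 lower in the fit of 15 arrays. Krtap9-1 had 19579, 13617 and 15915 units on day 6 and 49952, 58057 and 53087 on day 14, a change of 1.73 ± 1.32 (adjusted p = 0.414 with 18 arrays and 3.49e-07 with 15). Krtap6-3 ran the other way, at 1597, 1684 and 999 units on day 6 and 319.5, 537 and 445 on day 14, with a change of -1.71 ± 0.61 that did not pass with 18 arrays (adjusted p = 0.0643) and passed with 15 (adjusted p = 1.94e-05). Its family member Krtap6-2 lay higher on day 14, at 0.42 ± 1.01, and passed in neither fit. Of 9 genes of the inner root sheath and medulla 1 was called, the sheath keratin Krt72, from 4334, 4313 and 4075 units to 15840.4, 18086 and 17850.2 (2.02 ± 0.62, adjusted p = 0.033), and 8 were called with 15 arrays. Among these, the peptidylarginine deiminases Padi1, Padi3 and Padi4 had changes of 1.27 ± 0.66, 0.78 ± 0.75 and 1.28 ± 0.44, and Tchh had one of 1.25 ± 0.64. Members of these families resemble each other in sequence, and their values can hold signal of a relative.

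**Figure D4:**
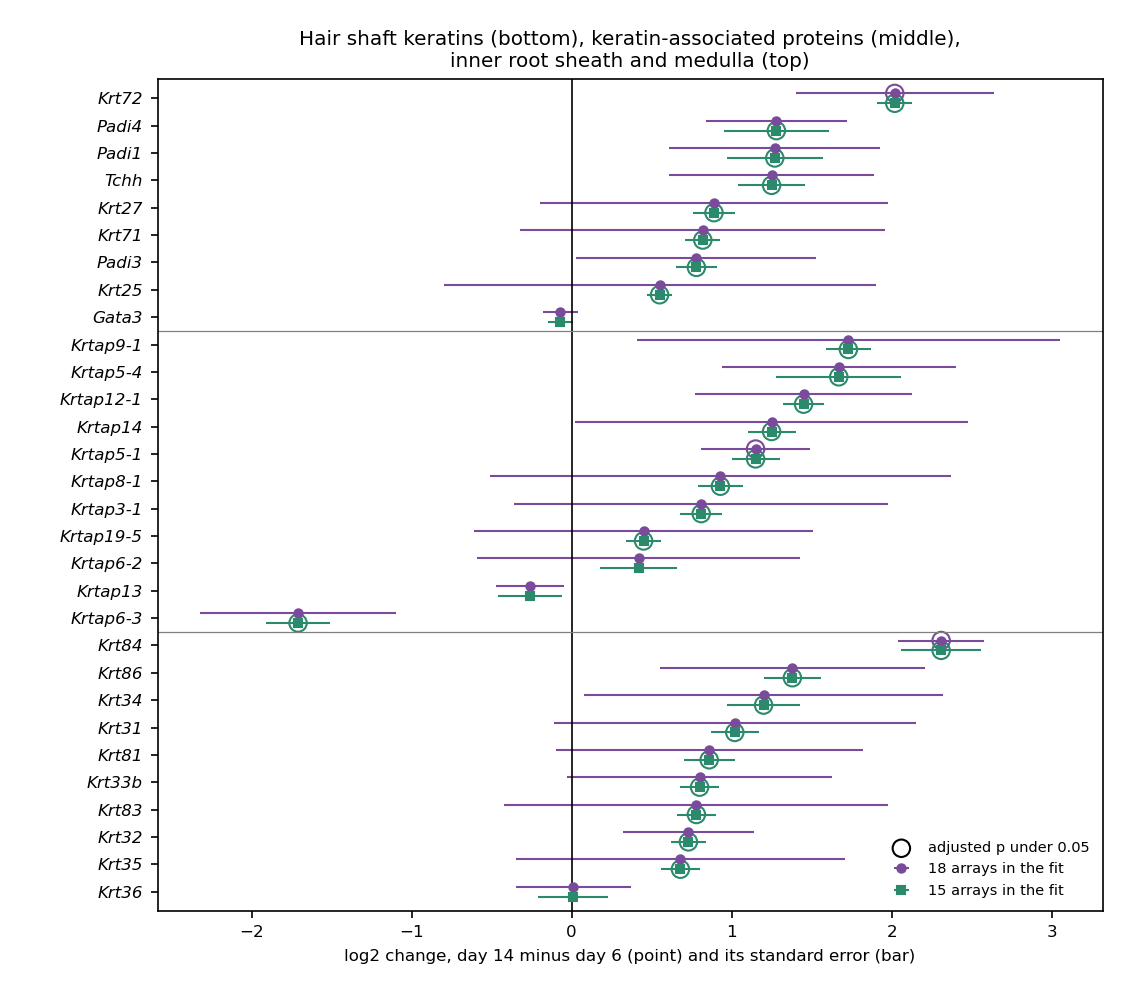
Log2 change from day 6 to day 14 (points) and its standard error (bars) for hair shaft keratins, keratin-associated proteins, and inner root sheath and medulla genes, from the fit of 18 arrays (purple circles) and of 15 arrays without 9 weeks (green squares), with open rings around calls. The points of the 2 fits coincide while the bars shorten, and 1 keratin is ringed in purple against 9 in green.

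Of 18 measured transcription factors of the follicle 2 were higher and 2 lower, near the 7.49% and 10.2% of all genes. These calls too depended on the arrays in the fit. With the 15 arrays without 9 weeks 4 of 18 were higher and 2 lower. With the 6 arrays alone 5 of 17 were higher and 1 lower. Over all probe sets these fits called 929 of 8594 and 671 of 7482 higher. Runx1, active in follicle stem cells and the shaft, had 121, 51.4 and 133 units on day 6 and 207, 238 and 233 on day 14 (1.26 ± 0.35, adjusted p = 0.019), and Elf5 changed by 1.03 ± 0.29. The homeobox genes Dlx5 and Msx1 fell by 1.36 ± 0.29 and 0.50 ± 0.16. Foxn1, Msx2, Dlx3 and Gata3, known for shaft and sheath differentiation, did not pass, with changes between -0.07 and 0.34.

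Skeletal muscle genes, read from the muscle sheet under the back skin, switched myosin forms while the bulk of muscle genes did not pass. Of 39 genes of mature muscle 9 were higher and none lower, with a median log2 change of 0.04, and of 12 genes of developing muscle 5 were lower and none higher, with a median of -0.50. Myosin heavy chains are the motor proteins of the fibre, and their genes form a cluster on chromosome 11, in the order Myh3 (embryonic), Myh2, Myh1 (fast IIx), Myh4 (fast IIb), Myh8 (perinatal). The 120 bases before the starts of the 4 measured genes are given to show the members of the switch side by side, from RefSeq, GRCm38.p6, plus strand, with the TATA box TATAAA and the E-box CANNTG in capitals, each searched on both strands.
Myh3 (fell), chr11:67078180-67078299: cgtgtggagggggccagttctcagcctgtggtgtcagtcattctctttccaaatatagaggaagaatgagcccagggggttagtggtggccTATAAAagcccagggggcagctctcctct
Myh8 (fell), chr11:67277004-67277123: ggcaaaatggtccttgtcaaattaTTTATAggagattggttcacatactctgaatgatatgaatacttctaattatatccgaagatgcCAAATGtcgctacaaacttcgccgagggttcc
Myh1 (rose), chr11:67199982-67200101: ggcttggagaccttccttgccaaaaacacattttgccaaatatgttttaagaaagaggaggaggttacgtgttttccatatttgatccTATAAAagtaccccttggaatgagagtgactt
Myh4 (rose), chr11:67237692-67237811: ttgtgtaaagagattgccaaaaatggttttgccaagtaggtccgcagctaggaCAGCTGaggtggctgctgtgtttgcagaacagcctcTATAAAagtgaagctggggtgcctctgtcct

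In Myh3, Myh1 and Myh4 a TATA box begins 29, 32 and 31 bases before the start, and in Myh8 the match reads TTTATA, on the other strand, and begins 96 bases before it. An E-box is in the windows of Myh8 and Myh4 and, of all promoters in the table, in 40.2%. Neither motif is found in all genes that rose and missing from all that fell.

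Myh8 had 1289, 1316 and 1342 units on day 6 and 282, 349 and 289.6 on day 14 and fell by 2.11 ± 0.30 (adjusted p = 1.57e-04). Myh3 had 64.5, 78.6 and 92.9 units on day 6 and 7.9, 17.1 and 7.9 on day 14, where all 3 arrays were at the floor, so it was at least 2.38-fold lower (adjusted p = 0.00249). Myh4 had 440.2, 436 and 220.4 units on day 6 and 4665, 4525 and 3364 on day 14, a rise by 3.57 ± 0.23 (adjusted p = 2.55e-08); its dimmer second probe set was not called. Myh1 had 804, 874 and 699.6 units on day 6 and 2666, 3219 and 3009.7 on day 14, a rise by 1.91 ± 0.16 (adjusted p = 5.33e-07). The fast adult forms thus stood higher and the embryonic and perinatal forms lower on all 3 arrays of day 14.

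Mb, the oxygen store myoglobin, rose by 1.5 ± 0.30, the calcium pump Atp2a1 by 0.79 ± 0.10, the calcium store protein Casq1 by 0.67 ± 0.15, Tpm1 by 0.92 ± 0.15, Mybph by 0.70 ± 0.14, Actn3 of fast fibres by 0.64 ± 0.20 and the creatine kinase Ckm by 0.47 ± 0.15. The adhesion molecule Ncam1, the embryonic troponin Tnnt2 and the cardiac actin Actc1 fell by 0.99 ± 0.17, 0.76 ± 0.25 and 0.57 ± 0.13. The master regulators Myod1 and Myog, with changes of 0.14 ± 0.14 and -0.01 ± 0.40, did not pass. The summed intensity of the 39 mature genes was 50514 to 57452 units on day 6 and 63527 to 73279 on day 14. Vamp1, a vesicle fusion protein known from nerve endings and outside both lists, rose from 45.5, 31.4 and 37.5 units to 263, 339 and 422 (3.13 ± 0.41). With the sex marker covariate 3 mature genes were higher, Myh4 and Myh1 among them, and no developmental gene was lower.

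**Figure D5:**
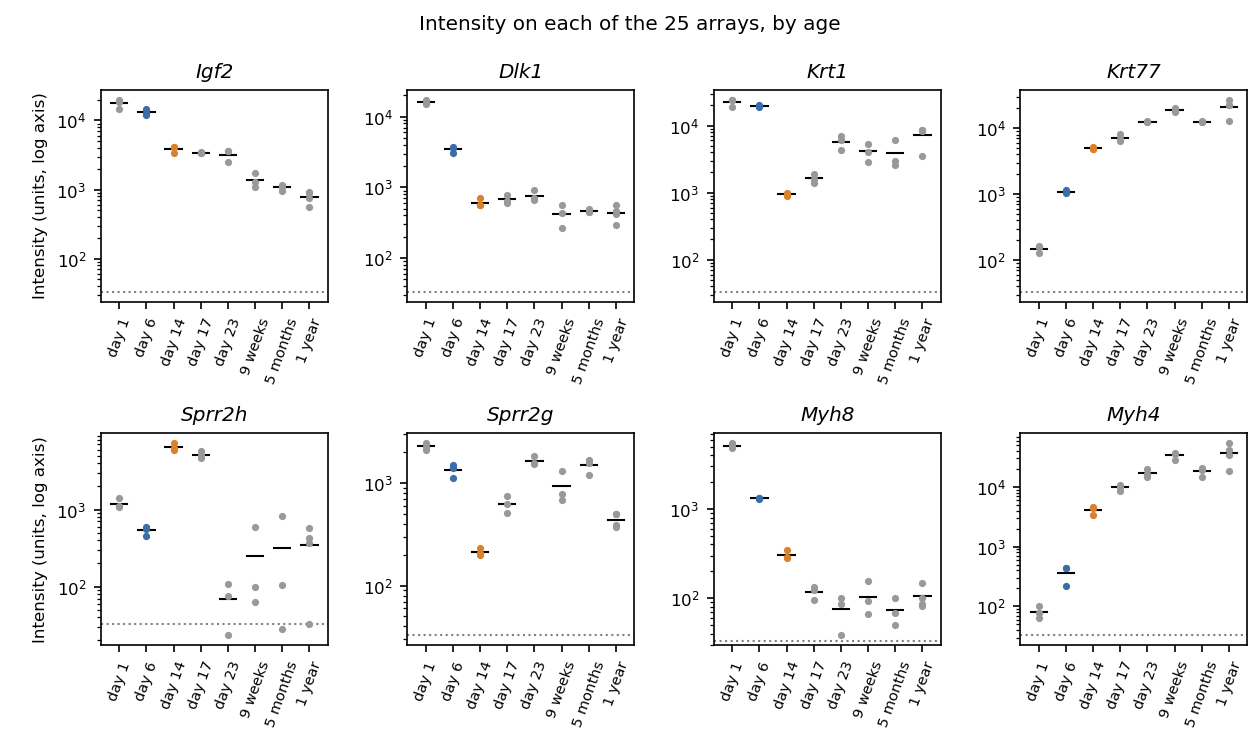
Intensity of 8 genes on each of the 25 arrays, by age, on log axes, with day 6 in blue, day 14 in orange, other ages in grey, age means as black bars and the floor as a dotted line. From day 1 to day 14 the means of Igf2, Dlk1 and Myh8 descend and those of Krt77 and Myh4 climb, Sprr2h is highest on days 14 and 17, and Krt1 and Sprr2g are lowest on day 14.

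The levels at other ages, given as a description, placed these changes in different courses. Igf2 had a mean of 17846 units on day 1, 13131 on day 6, 3858 on day 14 and 783 at 1 year, and Dlk1 had 16013, 3434, 604 and 432 at the same ages. Krt1 had 22498 units on day 1 and 947 on day 14, and then 1626 on day 17 and 5771 on day 23. Krt77 had 149.9 units on day 1, 1092 on day 6, 4942 on day 14 and 21163 at 1 year, so the means of Krt1 and Krt77 ran opposite ways from day 1 to day 14 and both climbed from day 14 to day 23.

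Sprr2h, at 1195 units on day 1 and 6524 on day 14, had 5156 on day 17 and 68.7 on day 23, and Krt84 had 1479 on day 14, 1232 on day 17 and 21.0 on day 23. Sprr2g, at 214 units on day 14, was back at 1657 on day 23. Myh4 had 81.2 units on day 1, 4185 on day 14 and 33902 at 9 weeks, and Myh8 had 5159, 307 and 104 at these ages. Among genes low on day 14, Adipoq, Lum and Hal had higher means again on day 23, whereas Igf2 and Mest did not. Other imprinted genes did: Ndn had means of 185 units on day 14 and 820 on day 23, and Meg3 had 254 and 2000. Peg3 had 1170 and 2144 units on these days, Cdkn1c 425 and 919, and Plagl1, Slc38a4 and Gnas were also higher on day 23. These descriptions share the day 6 and day 14 arrays with the comparison and add no test of it.

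Genes of the dermal matrix were lower in large part. Of 7 fibrillar collagens 4 were lower (median log2 change -0.60), of 8 other interstitial collagens 5 (-0.85), of 13 collagen processing genes 5 (-0.49) and of 11 elastic fibre genes 6 (-0.55), with none higher. All 3 chains of collagen VI, which forms beaded filaments around cells, fell, with Col6a2 at 4385, 4695 and 4497 units on day 6 and 1139, 1529 and 1361 on day 14 (-1.76 ± 0.22), and with Col6a3 and Col6a1 at -1.33 ± 0.31 and -0.99 ± 0.19. Col5a2, which sets the width of collagen fibrils, had 5323, 5481 and 5282 units on day 6 and 2573, 2688 and 2356 on day 14 (-1.08 ± 0.12, adjusted p = 1.42e-05). Col3a1, the collagen of young skin, changed by -0.62 ± 0.10. The chains of collagen I, Col1a1 and Col1a2, at -0.06 ± 0.19 and -0.17 ± 0.12, did not pass.

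Lox, which starts collagen and elastin cross-links, had 597, 537 and 683 units on day 6 and 291, 217 and 260.5 on day 14 (-1.24 ± 0.20, adjusted p = 3.61e-04), while its dimmer second probe set was at 0.37 ± 0.44 (adjusted p = 0.616) and the call was lost when they were averaged. The collagen chaperone Serpinh1 changed by -1.11 ± 0.16. In elastic fibres Fbn2, the developmental fibrillin, had 272, 179 and 212 units on day 6 and 67.6, 66.6 and 63.3 on day 14 (-1.73 ± 0.40), and Mfap2, Mfap5 and elastin, Eln, changed by -1.19 ± 0.12, -1.05 ± 0.17 and -0.37 ± 0.09. Elastin itself moved least of the 6 called members.

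Of 15 matrix proteoglycans 6 were lower and 1 higher. Vcan, the large proteoglycan versican, had 852, 914 and 635 units on day 6 and 245, 274 and 252 on day 14 (-1.62 ± 0.23, adjusted p = 1.07e-04), and Lum, which spaces collagen fibrils, changed by -1.59 ± 0.13. Gpc3, Dpt, Bgn and Dcn fell by 1.05 ± 0.16, 0.97 ± 0.16, 0.71 ± 0.14 and 0.58 ± 0.08. The higher member was Sdc1, the syndecan of epithelia, at 0.86 ± 0.13. Of 15 matricellular proteins 6 were lower, among them Ccn3 at -1.52 ± 0.31 and Postn at -0.86 ± 0.19, and 1 was higher, Ccn2, from 276, 219 and 241 units to 472, 628 and 634 (1.23 ± 0.21, adjusted p = 5.82e-04).

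Of 17 basement membrane genes 9 were lower and 1 higher (median -0.44). Hspg2, the proteoglycan perlecan, and Col7a1, the anchoring fibril collagen, changed by -0.97 ± 0.19 and -0.85 ± 0.10, and Col4a1, of the sheet-forming collagen IV, by -0.71 ± 0.07. Of 11 matrix proteases and inhibitors 3 were higher, the macrophage elastase Mmp12 at 1.54 ± 0.30, Mmp3 at 1.02 ± 0.32 and the inhibitor Timp3 at 0.47 ± 0.15, and 2 were lower, Plat and Mmp14. With the sex marker covariate 1 fibrillar collagen, 1 other collagen, 1 elastic fibre gene, 2 proteoglycans, 3 basement membrane genes and no collagen processing gene were called lower; Col6a2 and Lum were among them.

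Most adipocyte genes fell. Of 22 measured 15 were lower and none higher, with a median log2 change of -0.73, and their summed intensity was 37121 to 42379 units on day 6 and 20727 to 23333 on day 14. The hormone gene Adipoq had 4182, 4958 and 4708 units on day 6 and 1707, 1402 and 1577 on day 14 (-1.56 ± 0.17, adjusted p = 8.73e-06), and Retn, another fat cell hormone, had 1165, 1858 and 1782 and 402, 643 and 534 (-1.60 ± 0.25). Car3, the abundant carbonic anhydrase of fat, had 8000.0, 8490.5 and 7998 units on day 6 and 2517, 2230.5 and 2436 on day 14 (-1.77 ± 0.21). All of these hormone and enzyme genes were lower on every array of day 14.

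Slc2a4, the insulin-regulated glucose transporter, fell by 2.03 ± 0.16 and the adipogenic regulator Pparg by 1.61 ± 0.28. Cav1 of caveolae and the lipase Lpl fell by 1.39 ± 0.15 and 1.10 ± 0.19. Lep, which encodes leptin, had 942, 982 and 2277 units on day 6 and 2245, 2658 and 1421 on day 14, and Fabp4, the fatty acid carrier, changed by 0.35 ± 0.22; neither passed. The brighter probe set of Ucp1, the proton channel of brown fat, had 76.3, 423 and 216 units on day 6 and was at the floor on all 3 arrays of day 14, at least 5.84-fold lower. Its call (adjusted p = 0.0239) was lost without mouse 2 or 3 of day 6 or any mouse of day 14. A second probe set of Ucp1 had 56.5, 69.0 and 109.1 units on day 6 and 85.8, 70.5 and 65.0 on day 14 (-0.04 ± 0.43, adjusted p = 0.972), so the probe sets disagree and the call was lost when they were averaged. Serpina12, the adipokine vaspin and outside the list, had 1143, 1138 and 1051 units on day 6 and 158, 225 and 211 on day 14 (-2.50 ± 0.16, adjusted p = 1.43e-08). With the sex marker covariate 5 adipocyte genes were lower, Adipoq among them. Of 13 genes of fatty acid and triglyceride synthesis 2 were higher, Me1 and Scd1, and 1 lower, Dgat1, beside 7.49% higher and 10.2% lower of all genes.

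Cell division genes were lower on day 14 where they changed. Of 52 measured 16 were called lower and none higher, with a median log2 change of -0.55, and for 33 of them the groups did not overlap and day 14 was lower (18.5% of all probe sets). Aurkb, a kinase of chromosome segregation, had 439.6, 594 and 586 units on day 6 and 329.7, 75.9 and 91.8 on day 14 (-2.02 ± 0.60, adjusted p = 0.03). Pcna, the sliding clamp of DNA replication, had 2186, 2889.5 and 2075 units on day 6 and 1407, 1330.4 and 1369.5 on day 14 (-0.78 ± 0.15, adjusted p = 0.00193). The helicase subunits Mcm5 and Mcm7 fell by 0.74 ± 0.12 and 0.73 ± 0.12, and Birc5 and Kif23, of cytokinesis, by 1.07 ± 0.32 and 0.90 ± 0.21.

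Mki67, the common proliferation marker, had 1453, 1940.1 and 1024 units on day 6 and 830.3, 713 and 789.6 on day 14 and did not pass (-0.88 ± 0.38, adjusted p = 0.125). The number called lower was 25 with the 15 arrays without 9 weeks, 24 with the 6 arrays alone, 5 with all 25 arrays in 1 fit and none with the sex marker covariate. Ccnd1, the cyclin of cell cycle entry and a listed Wnt target, had 2316, 1941 and 1933 units on day 6 and 723, 1058 and 1000.3 on day 14 (-1.17 ± 0.21, adjusted p = 8.57e-04).

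Most signals of follicle growth did not pass. Of 35 Wnt pathway genes 3 were higher and 6 lower (median -0.04), beside 7.49% higher and 10.2% lower of all genes, so the higher calls are near the background. Sfrp2, a secreted Wnt antagonist of dermal cells, had 911, 759 and 672 units on day 6 and 229.5, 210.5 and 160.2 on day 14 (-1.97 ± 0.22, adjusted p = 1.28e-05), and Sfrp4, whose arrays overlapped, changed by -1.38 ± 0.45. Receptor Fzd3 rose by 0.66 ± 0.18 and Fzd2 fell by 0.50 ± 0.13, and Ctnnb1, which encodes beta-catenin, rose by 0.34 ± 0.08. The ligand Wnt10b and the effector Lef1, both active in growing follicles, did not pass, at 0.17 ± 0.29 and -0.28 ± 0.12.

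Of 26 genes of the BMP and TGF-beta pathway 2 were higher and 4 lower (median 0.06), also near the background. Tgfb1 had 275, 193 and 219.8 units on day 6 and 33.3, 81.5 and 37.3 on day 14 (-2.28 ± 0.50, adjusted p = 0.00493) with every day 14 array below those of day 6. Tgfb3, the activin antagonist Fst and the target Id3 fell by 0.65 ± 0.11, 0.72 ± 0.19 and 0.59 ± 0.15, and Bmp2 and Gdf10 rose by 0.78 ± 0.26 and 0.73 ± 0.23. Bmp4 and its antagonist Nog, at 0.02 ± 0.15 and 0.01 ± 0.31, did not pass.

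Of 20 growth factor genes 3 were higher and 7 lower, beside 7.49% higher and 10.2% lower of all genes. The receptor Fgfr1 had 807, 838 and 804 units on day 6 and 308, 448 and 383 on day 14 (-1.12 ± 0.14, adjusted p = 4.28e-05), and the vessel factor Vegfa changed by -1.06 ± 0.28. The PDGF ligands Pdgfa and Pdgfb and the receptors Pdgfra and Pdgfrb were all lower, by changes from -0.81 to -0.46. Fgf1, Egfr and Erbb3 rose by 1.32 ± 0.39, 0.52 ± 0.12 and 0.51 ± 0.11. In the hedgehog pathway, of 9 genes the receptor Ptch1 was lower at -0.45 ± 0.15 and Smo higher at 0.51 ± 0.15, and the ligand Shh had 608, 524 and 592 units on day 6 and 334, 288 and 280.4 on day 14, a change of -0.93 ± 0.52 that did not pass (adjusted p = 0.247). Every day 14 array of Shh lay below those of day 6. The number of hedgehog genes called lower depended on the arrays in the fit. In the fit of the 15 arrays without 9 weeks, 1 of the 9 genes was higher and 2 lower. The 6 arrays alone gave the same counts, and all 25 arrays in 1 fit gave 1 higher and none lower. Of all probe sets, the fits of 15 and 6 arrays called 1055 of 8594 and 719 of 7482 lower. With the sex marker covariate 1 gene of these 4 lists was called, Sfrp2.

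Of 13 dermal papilla genes 5 were lower and none higher, with Vcan and Igfbp4 above, Sox18 at -1.36 ± 0.12, Crabp1 at -1.14 ± 0.33 and Ptch1. The papilla enzyme Alpl and Corin, at -0.75 ± 0.38 and 0.54 ± 0.30, did not pass. Of 17 endothelial genes 4 were lower, Sox18 again, the vessel cadherin Cdh5 at -0.89 ± 0.16, Emcn at -0.81 ± 0.21 and the tight junction protein Cldn5 at -0.78 ± 0.15, while Pecam1, at 0.39 ± 0.30, did not pass. Of 11 genes of smooth muscle and pericytes 3 were lower, among them Tagln at -1.06 ± 0.11 and Acta2 at -0.71 ± 0.18, and 1 was higher, Myh11 at 1.25 ± 0.30. The shares to set beside these lists are 10.2% lower and 7.49% higher of all genes.

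Some mast cell genes fell. Of 9 measured 4 were lower and none higher, beside 10.2% lower and 7.49% higher of all genes, with a median log2 change of -0.45, and their summed intensity was 6400 to 7009 units on day 6 and 3268 to 3713 on day 14. The chymase Cma1 had 2838, 2990.0 and 2649 units on day 6 and 949, 779.8 and 765 on day 14 (-1.77 ± 0.25, adjusted p = 1.41e-04). The carboxypeptidase Cpa3, the histamine-forming Hdc and the tryptase Tpsb2 fell by 1.45 ± 0.23, 1.66 ± 0.40 and 0.78 ± 0.14. The stem cell factor receptor Kit, which mast cells share with pigment cells, changed by -0.45 ± 0.33 and did not pass. Other members pointed up and did not pass: Srgn at 0.97 ± 0.35, Mcpt1 at 0.58 ± 0.36 and Gata2 at 0.43 ± 0.31. For Srgn every day 14 array lay above those of day 6. With the 15 arrays without 9 weeks 4 members were lower and 1 higher. None of the 4 calls held with the sex marker covariate.

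Genes of antigen presentation rose in part. Of 12 genes of class II presentation and Langerhans cells 4 were higher and none lower (median 0.73): the class II chain H2-Aa, from 704, 644 and 522 units to 1353, 1059 and 1197 (0.95 ± 0.20, adjusted p = 0.00303), its partner H2-Ab1 at 0.65 ± 0.18, the invariant chain Cd74 at 0.94 ± 0.18 and the Langerhans and epithelial adhesion molecule Epcam at 0.81 ± 0.16. Of 24 genes of class I presentation and the interferon response 4 were higher and 1 lower, beside 7.49% higher and 10.2% lower of all genes. The class I chains H2-D1 and H2-K1 rose by 1.34 ± 0.18 and 0.79 ± 0.16. Chains of the class I family resemble each other closely, so their values are uncertain as to which one they read. Mouse 1 of day 14 was the highest array for Cd74, H2-Aa, H2-D1 and H2-K1, and none of the calls of either list held with the sex marker covariate.

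Of 20 macrophage genes 1 was higher and 3 lower, beside 7.49% higher and 10.2% lower of all genes. Mrc1, the mannose receptor, was at -1.03 ± 0.31 and the dendritic cell integrin Itgax at 0.73 ± 0.23. With the 15 arrays without 9 weeks 4 of the 20 macrophage genes were higher and 5 lower. Of 9 genes of T and NK cells 2 were higher and 1 lower, beside the same shares of all genes. Zap70, the T cell kinase, had 139.7, 108 and 124 units on day 6 and 589, 786 and 832 on day 14 (2.56 ± 0.20), but a second tested probe set changed by 0.48 ± 0.77 and did not pass, and another lay below the floor on all 6 arrays. Thy1, on T cells and on fibroblasts, fell by 1.07 ± 0.26, and Cd3e, a T cell receptor subunit, changed by 0.43 ± 0.33 and did not pass.

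Genes of plasma and complement proteins rose in part, and angiotensinogen fell. Of 9 measured 5 were higher and 1 lower, with a median log2 change of 0.64. Clu, the extracellular chaperone clusterin, had 1819, 1731 and 1689 units on day 6 and 4636, 5146 and 5078 on day 14 (1.5 ± 0.16, adjusted p = 6.84e-06), and the lipid carrier Apoe had 26988, 25601 and 27432 and 50687, 56559 and 57838 (1.04 ± 0.10, adjusted p = 3.29e-06). The inhibitors Serpina3n and Serping1 and the lipocalin Apod rose by 0.87 ± 0.20, 0.61 ± 0.15 and 0.64 ± 0.18. Agt, the precursor of angiotensin, had 505, 282 and 385 units on day 6 and 51.7, 45.7 and 34.1 on day 14 (-3.14 ± 0.41, adjusted p = 5.95e-05). Agtr2, an angiotensin receptor known for its high level in fetal tissue, had 236, 255 and 266 units on day 6 and was at the floor on all 3 arrays of day 14, at least 7.7-fold lower (adjusted p = 3.23e-06). Of these calls, 3 increases and the decreases of Agt and Agtr2 held with the sex marker covariate.

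Among the other large changes, Saa3, a serum amyloid made in inflamed tissue, was at the floor on all 3 day 6 arrays and had 275, 244 and 223 units on day 14, at least 7.53-fold higher (adjusted p = 0.00212). Saa3 and St3gal5 reached the filter on low values only with the day 14 arrays, where they are high, so their calls were favoured by the filter. Car6, a secreted carbonic anhydrase, rose from 488, 418 and 324 units to 2880.3, 2785 and 2667 (2.78 ± 0.68, adjusted p = 0.01), and its call was lost with all 25 arrays in 1 fit. Fcgbp, a mucin-like secreted protein, rose by 2.29 ± 0.24, the actin regulator Cap1 by 2.42 ± 0.36, the kininogen Kng1 by 2.18 ± 0.44, and the sialyltransferases St6galnac4 and St3gal5 by 2.31 ± 0.43 and 2.23 ± 0.48. H1f10, a linker histone, fell from 906, 944 and 881 units to 82.9, 79.4 and 57.2 (-3.66 ± 0.48, adjusted p = 5.28e-05), and Mef2c, a transcription factor of muscle and vessels, from 387, 335 and 294 to 8.9, 85.1 and 10.3 (-2.90 ± 0.32).

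Rbp4, the retinol carrier, fell by 2.83 ± 0.40, Serpinb3a, an epithelial protease inhibitor, by 2.80 ± 0.31 and Npl, a sialic acid lyase, by 2.63 ± 0.32. The calls of Saa3, Car6, Cap1, Kng1, St6galnac4, St3gal5, H1f10 and Rbp4 were lost with the sex marker covariate, and those of Fcgbp, Mef2c, Serpinb3a and Npl held.

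With 1 of the 6 arrays left out, fewer probe sets were called in every such fit. Of the 283 genes of the lists and of the largest changes that were called, 180 were called in all 6 of these fits, 90 lost the call in some and 11 in each. The other 2, S100a9 and St3gal5, were not tested in some of them. The 11 are Cdsn, Tgm3, Krt72, Ckm, Mmp3, Ptch1, Sgce, Sparc, Pck1, Prc1 and Mvd. Among genes described above, Aurkb, Birc5, Bmp2, Itgax, Actn3, Tnnt2, Krtap5-1, Phlda2, Pdgfa, Sfrp4, Dgat1 and Ucp1 lost it in 5 of the 6. The calls of Igf2, Dlk1, Krt1, Krt77, Sprr2f, Sprr2g, Myh4, Myh1, Agt, Agtr2, Clu and Adipoq held in each of these fits.

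Probe sets of 1 gene did not always agree. Besides those given above, dimmer probe sets that were not called had the opposite sign for Mfap5 (0.17 ± 0.36), S100a10 (0.57 ± 0.31), S100a13 (0.02 ± 0.21), Pdgfra (0.28 ± 0.26), Ptch1 (0.04 ± 0.22), Tpsb2 (0.05 ± 0.38), Ckm (-0.36 ± 0.62) and Dgat1 (0.09 ± 0.50). A further probe set of Igfbp4 was at -0.01 ± 0.31, of Cav1 at -0.03 ± 0.22 and of Mcm5 at -0.02 ± 0.59, and none of these was called. Dimmer probe sets of Peg3, Plagl1 and Mef2c fell by less, at -0.32 ± 0.14, -0.77 ± 0.38 and -0.75 ± 0.37, and were not called. Additional probe sets of Peg3 and Mef2c were called lower.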

How the data were processed

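Total RNA of back skin had been hybridised to 1-colour Affymetrix arrays, 1 per labelled mouse. The authors deposited 1 linear intensity per probe set and array, scaled so that the trimmed mean was near 500 units (500.29 to 500.33 on the 6 arrays, as computed from the values). The sources used here name no array software, scanner or scaling method. The deposited table holds 12488 probe sets, of which 66 controls were left out. Probe sets were named through the platform annotation, which gave 1 gene symbol for 10855 of them, several for 396 and none for 1237. Probe sets with several symbols were not named.

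Intensities were raised to a floor of 32.7 units (the 20th percentile) and taken to log2. Probe sets above 127.8 units (the 40th percentile) on at least 3 arrays were kept, 8715 in all. The fit used limma 3.58.1 (R 4.3.3) and the 18 arrays of days 1, 6, 14, 17, 23 and 9 weeks, each age a group, and p-values were adjusted over all 8715 (Benjamini-Hochberg, threshold 0.05). A change is day 14 minus day 6 on this scale, which understates changes of genes near the floor. Where a whole group lay at the floor, the fold is a bound computed against 32.7 units. On simulated data of the same probe sets the test recovered 26.3%, 63.2% and 89.3% of log2 changes of 0.5, 1 and 2, with 2 false calls. The number of arrays limits the precision.

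A gene is represented by its brightest probe set. Named genes are the 15 largest called increases and decreases without overlap, the called members of 55 gene lists (largest first, up to 6) and members whose role is described, with sex markers and control probe sets. Members and lists were chosen with earlier results of these data known. Promoter sequences are from RefSeq (GRCm38.p6). Mouse numbers are shared by the ages, but deviations of arrays with the same number correlated by -0.002, -0.004 and -0.021, so the arrays were not treated as pairs. Alternatives were quantile normalisation, median centring, a pseudocount or higher floor, no filter, other sets of arrays, averaged probe sets, a replicate block, a sex marker covariate and leaving out each array.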

Additional observations from a re-analysis of the deposited data

How the results depend on the processing

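The counts of 647 probe sets higher and 816 lower stayed within 1.5 times under quantile normalisation, median centring, a pseudocount, a higher floor, no filter, averaged probe sets, the 6 arrays alone and the 15 arrays without 9 weeks (489 to 929 higher, 656 to 1055 lower; averaged probe sets count genes). All 25 arrays in 1 fit gave 393 higher and 558 lower, and the covariate for both sex markers gave 79 and 103; that covariate is separated from age through the day 1 arrays alone, and the cause of these drops was not tested. Leaving out 1 array gave 427 to 586 higher and 563 to 688 lower. With the replicate number as a block, 615 were higher and 776 lower, and 263 of the 283 called genes of the lists and largest changes kept their call; the numbers do not pair the arrays. Of these 283 genes, 282 kept it with 15 arrays, 242 with the 6 arrays, 181 with all 25 and 65 with the covariate. Averaging probe sets turned Dvl2 to 0.3, Gstm5 to -0.05 and Lama5 to 0.18, and quantile normalisation turned Rplp0 to -0.24 and Rps24 to -0.04, the cause of which was not tested. Krt36, not called and near 0, ranged from -0.07 to 0.1 when 1 array was left out, with -0.02 and -0.04 without mouse 2 or 3 of day 6 and -0.07 without mouse 2 of day 14. Signal at the floor, on 1.8% to 2.56% of tested probe sets per array, limits what can be read of dim genes.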

Other observations

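Of 66 measured genes of oxidative phosphorylation 10 were lower and 2 higher, with a median log2 change of -0.04, beside 10.2% lower and 7.49% higher of all genes, so the share called is near the background. Cox6b2, Ndufa7, Ndufa6 and Sdhd, subunits of the respiratory chain, changed by -1.04 ± 0.24, -0.84 ± 0.19, -0.48 ± 0.14 and -0.55 ± 0.12. The 2 higher members were Atp5pb at 0.95 ± 0.19 and Cyc1 at 0.35 ± 0.10. The call of Ndufa6 was lost without mouse 1 or 2 of day 6 or any mouse of day 14, and that of Cyc1 without mouse 1 or 2 of either age. Of 28 cytosolic ribosomal protein genes 5 were higher and 3 lower, and their probe sets can share signal with pseudogenes. Of 12 glycolysis genes 2 were higher, Aldoa at 0.65 ± 0.10 and Pfkp at 0.79 ± 0.19, and both were called with the sex marker covariate too. Of 16 genes of cholesterol synthesis 2 were lower, Mvd at -0.65 ± 0.20 and Dhcr7 at -0.62 ± 0.18, and of 5 sebaceous gland genes none was called.

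Of 12 glucocorticoid targets 4 were higher and 2 lower. The shares to set beside this and the following lists are 7.49% higher and 10.2% lower of all genes. The metallothioneins Mt1 and Mt2, which bind zinc and copper, were both lower. Mt1 had 3648, 4566 and 3930.3 units on day 6 and 1406, 1663 and 1385 on day 14 (-1.45 ± 0.22). Mt2 had 17336, 17555 and 16575 units on day 6 and 9152, 9719.5 and 8564 on day 14 (-0.91 ± 0.16). The kinase Sgk1, the zinc finger gene Zbtb16 and the clock gene Per1 rose by 0.39 ± 0.11, 1.02 ± 0.33 and 0.98 ± 0.17, and the call of Zbtb16 was lost without all but 1 of the 6 arrays. Of 13 circadian clock genes Per1 and Tef were higher and none lower, and the sources used here give no hour of collection. In the retinoid pathway of 11 genes, Aldh1a1, which forms retinoic acid, rose by 0.56 ± 0.16, a call lost without 4 of the 6 arrays, and the carrier Crabp1 and the receptor Rara fell by 1.14 ± 0.33 and 1.94 ± 0.34. Of 10 pigment cell genes 1 was higher, the regulator Mitf, from 114, 116 and 61.7 units to 274, 217 and 227 (1.35 ± 0.33, adjusted p = 0.00894, limma).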
